A study of Caenorhabditis elegans with 6 samples.

Results

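The 9 genes described here encode collagen processing enzymes of the nematode Caenorhabditis elegans. They are the prolyl 4-hydroxylase alpha subunit genes dpy-18 and phy-2, the disulfide isomerase gene pdi-2, the lysyl hydroxylase gene let-268, the proprotein convertase gene bli-4, the thioredoxin-like gene dpy-11, and the FK506-binding protein genes fkb-3, fkb-4 and fkb-5. They were chosen by name from the platform annotation. Each of the 9 had exactly 1 probe set assigned to it alone, among 26192 probe sets with a gene, so no choice between probe sets of a gene arose. Wild-type hermaphrodites of the N2 strain were hatched synchronously and grown at 20 °C for 48 hours, from the L1 to the L4 stage, on bacteria of the E. coli strain OP50. Controls (n = 3 arrays) grew on plain nematode medium, and the perchlorate group (n = 3 arrays) had 1 mg/mL sodium perchlorate in both the agar and the food. Perchlorate is an oxidising anion. The protocol texts of the controls also mention perchlorate, but every other label names these samples as controls, and they were used as such.

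Collagen chains are modified inside the endoplasmic reticulum before they can leave the cell. Prolyl 4-hydroxylase, a tetramer of alpha subunits and protein disulfide isomerase, hydroxylates prolines so that the triple helix is stable, while disulfide isomerases and prolyl isomerases such as the FK506-binding proteins help the chains to fold and assemble. Convertases of the furin type then cut the procollagen amino-terminal end. In the worm the epidermis makes a new cuticle of collagen before each moult, and mutants in this machinery are short and fat (Dumpy), blistered or inviable.

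Over the tested probe sets, correlations between arrays ran from 0.9909 to 0.9928 within the control group, from 0.9836 to 0.9873 within the perchlorate group and from 0.9793 to 0.988 across groups. Perchlorate replicate 1 stood apart from the rest in many of the genes below, and values without it are given. Nothing in the labels ties replicates to separate cultures, so the p-values reflect only how far these samples spread, and that spread may be technical. All values are deposited log2 values of probe sets, and a difference of -1 on this scale is a halving. Precision is limited by the number of arrays. The sample is the whole animal, in which fewer cells of a type and less RNA per cell cannot be told apart.

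All 9 enzyme genes had a lower mean in larvae raised with perchlorate, with log2 differences from -1.15 to -0.21 and a median of -0.50. None passed at a limma p under 0.05 adjusted over all tested probe sets, where 0.00764% of probe sets did (2 of 26192). At an unadjusted limma p under 0.05, 6 of the 9 were lower and 0 higher, beside 7.92% of all tested probe sets lower and 8.46% higher. Of 13096 probe sets above the median of brightness, where all 9 lay, 1511 were lower and 1328 higher at that limma p. The 3 perchlorate values lay wholly below the 3 control values in 8 of the 9, beside 11.2% of all tested probe sets, or 17% of those above the median of brightness. Over all tested probe sets 44.8% had a log2 difference below 0, and the median difference was 0.03. The 9 genes were chosen for a known role in collagen processing and with earlier results of these data known, so these counts describe them and test nothing.

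**Figure D1:**
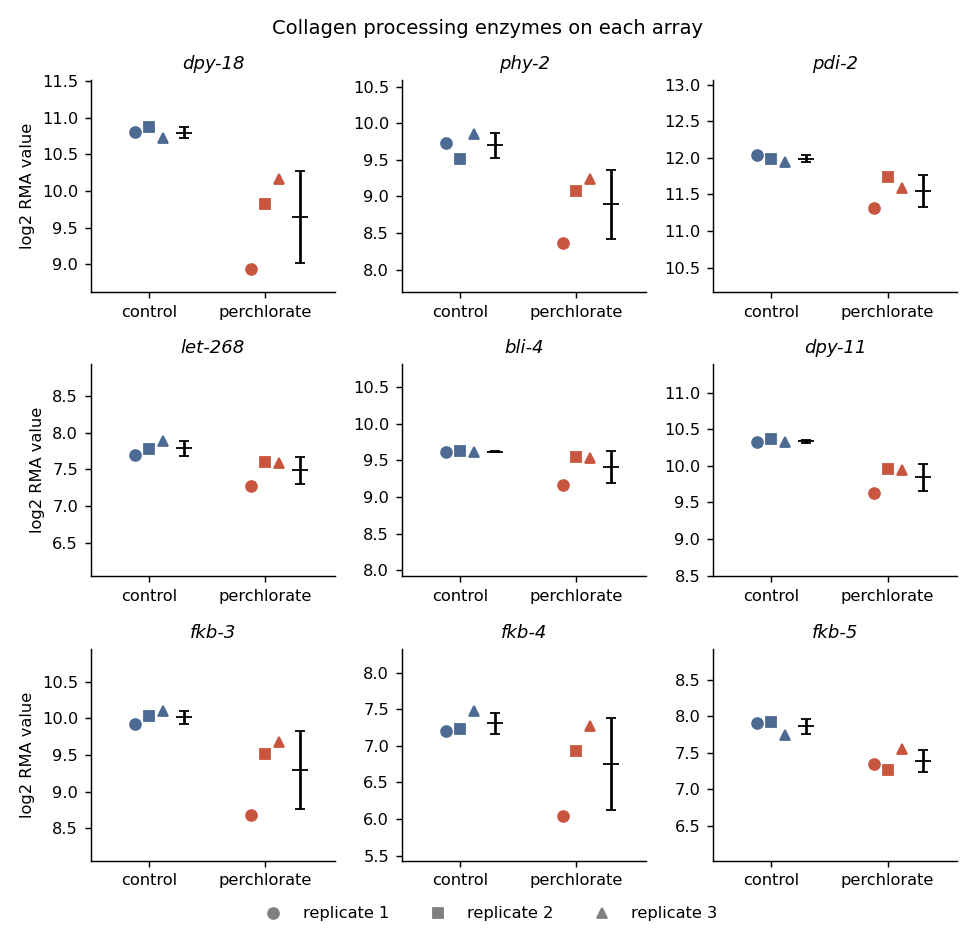
Log2 value of each of the 9 enzyme genes on every array, with controls in blue, perchlorate in red, a marker shape for each replicate number and black bars for the mean ± SD (n = 3). Each panel spans the same width of the log2 scale. The groups overlap in fkb-4 and are separate in the other panels, with the widest gap in dpy-18.

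Among the 9, dpy-18 had the largest difference. It encodes the main catalytic alpha subunit of prolyl 4-hydroxylase, and its loss gives Dumpy worms. Its log2 values were 10.80, 10.87 and 10.72 in the controls and 8.94, 9.83 and 10.16 in the perchlorate samples. All 3 perchlorate arrays were below all controls, and replicate 1 was the lowest by a wide margin. The mean was 10.80 ± 0.0741 in controls and 9.64 ± 0.631 with perchlorate (n = 3 arrays a group, ± SD). This is a log2 difference of -1.15 (SE 0.292, 95% interval -1.84 to -0.47, limma adjusted p = 0.159), or 44.9% of the control level. Only 0.573% of all tested probe sets had a lower log2 difference.

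The second alpha subunit gene, phy-2, encodes a catalytic subunit that can replace DPY-18 in part, and loss of both is embryonic lethal. Its values were 9.73, 9.51 and 9.85 in controls and 8.36, 9.08 and 9.24 with perchlorate. The order of the perchlorate arrays was that of dpy-18, with replicate 1 lowest and replicate 3 highest, and the groups did not overlap. The log2 difference was -0.80 (SE 0.237, 95% interval -1.36 to -0.24, limma adjusted p = 0.188), which is 57.3% of the control level.

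The disulfide isomerase PDI-2 is the beta subunit that holds the alpha subunits in a soluble, active enzyme. For pdi-2 the log2 values were 12.04, 11.98 and 11.94 in controls and 11.31, 11.73 and 11.59 with perchlorate. Again replicate 1 was lowest and the groups were separate, here over a narrower range. Over the arrays pdi-2 lay between the 98.0 and 99.0 percentile of brightness, near the top, and dpy-18 between 83.9 and 96.8. Its mean was 11.99 ± 0.0499 in controls and 11.54 ± 0.215 with perchlorate (n = 3 arrays a group, ± SD). The log2 difference was -0.45 (SE 0.137, 95% interval -0.77 to -0.12, limma adjusted p = 0.197), or 73.4% of the control level.

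LET-268 is the lysyl hydroxylase of the worm, needed for type IV collagen of basement membranes to leave the cells that make it. The log2 values of let-268 were 7.70, 7.78 and 7.89 in controls and 7.28, 7.60 and 7.58 with perchlorate. The groups did not overlap, but the gap between the lowest control and the highest perchlorate array was 0.09, about the size of the control SD (0.0998). The log2 difference was -0.30 (SE 0.133, 95% interval -0.61 to 0.01, limma adjusted p = 0.318).

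BLI-4 is a furin-like convertase that cuts cuticle procollagens, and its mutants have fluid-filled blisters in the cuticle. The controls of bli-4 were 9.62, 9.63 and 9.61, and the perchlorate arrays were 9.16, 9.54 and 9.53. Replicates 2 and 3 lay just under the controls, and replicate 1 was far lower. The log2 difference of -0.21 (SE 0.135, 95% interval -0.53 to 0.11, limma adjusted p = 0.486) was the smallest of the 9 and was -0.08 without perchlorate replicate 1. RefSeq lists 10 transcripts for this gene, and the single probe set does not separate them.

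DPY-11 is a membrane-bound thioredoxin-like protein of the epidermis, whose loss also gives Dumpy worms. Its gene had values of 10.32, 10.36 and 10.33 in controls and 9.63, 9.96 and 9.94 with perchlorate. Both groups were tight apart from replicate 1, and they were separated by 0.36 at the nearest arrays. The mean was 10.34 ± 0.0204 in controls and 9.84 ± 0.187 with perchlorate (n = 3 arrays a group, ± SD). This is a log2 difference of -0.50 (SE 0.127, 95% interval -0.80 to -0.20, limma adjusted p = 0.160), which is 70.9% of the control level.

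The proteins FKB-3, FKB-4 and FKB-5 are peptidyl-prolyl isomerases of the secretory pathway. For fkb-3 the log2 values were 9.93, 10.03 and 10.10 in controls and 8.68, 9.52 and 9.68 with perchlorate. No perchlorate array reached a control, and replicate 1 was lowest. The log2 difference was -0.72 (SE 0.254, 95% interval -1.32 to -0.12, limma adjusted p = 0.239), or 60.6% of the control level, and -0.42 without perchlorate replicate 1.

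In fkb-4 the values were 7.21, 7.23 and 7.48 in controls and 6.05, 6.93 and 7.27 with perchlorate. This was the one gene of the 9 whose groups overlapped, since perchlorate replicate 3 lay above 2 controls. Its log2 difference was -0.55 (SE 0.298, 95% interval -1.26 to 0.15, limma adjusted p = 0.399), and -0.20 without perchlorate replicate 1.

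The values of fkb-5 were 7.91, 7.92 and 7.74 in controls and 7.34, 7.26 and 7.56 with perchlorate. Here replicate 2, not replicate 1, was the lowest, and the groups did not overlap. The log2 difference of -0.47 (SE 0.126, 95% interval -0.77 to -0.18, limma adjusted p = 0.167) was 72.1% of the control level and moved little, to -0.45, without perchlorate replicate 1.

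**Figure D2:**
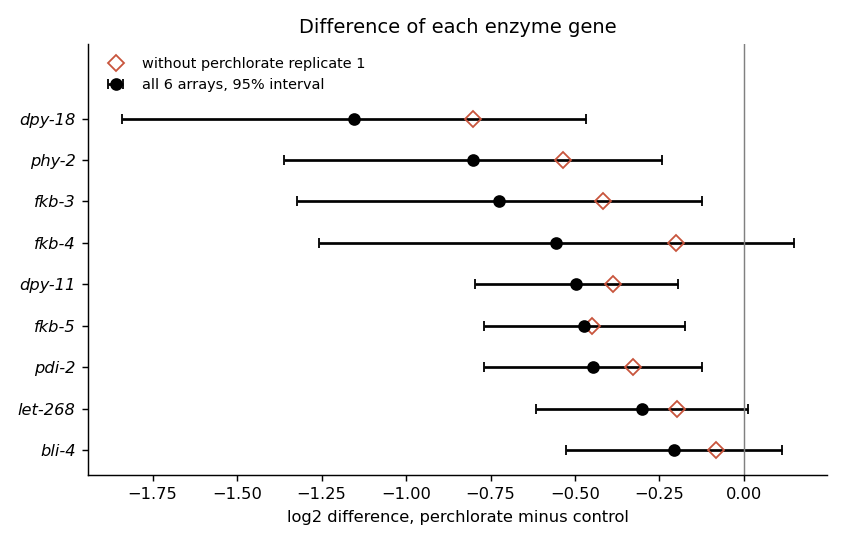
Log2 difference (perchlorate minus control) of each enzyme gene, with filled points and bars for the limma estimate and its 95% interval over all 6 arrays and open diamonds for the estimate without perchlorate replicate 1. All points lie below 0, from -0.21 in bli-4 to -1.15 in dpy-18, and the intervals of let-268, bli-4 and fkb-4 reach above 0.

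The perchlorate arrays differed from each other in these genes. Over the 9 genes the median deviation from the control mean was -0.71 on perchlorate replicate 1, -0.38 on replicate 2 and -0.34 on replicate 3, whereas it lay between -0.01 and 0.01 on the control arrays. Every gene was below its control mean on every perchlorate array, with deviations from -1.86 to -0.46 on replicate 1, from -0.97 to -0.08 on replicate 2 and from -0.64 to -0.03 on replicate 3. Replicate 1 was the lowest perchlorate array in 8 of the 9 genes, beside 31.3% of all tested probe sets. Among enzyme genes with groups separate and lower it was lowest in 87.5%. The share was 51.7% of all tested probe sets with such groups, and 55.6% of those also above the median of brightness. The SD was larger with perchlorate than in controls for all 9 genes, as it was for 62.6% of tested probe sets.

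Without perchlorate replicate 1 the median difference was -0.39. All 9 differences stayed below 0, which was fixed, since every gene was below its control mean on each perchlorate array. The remaining perchlorate values lay below all controls in the same number of genes, 8, beside 15.7% of tested probe sets. Leaving out a perchlorate array could not lower this count, so it is no check on replicate 1. The dpy-18 difference was then -0.80 (limma adjusted p = 0.166), that of phy-2 -0.54 (limma adjusted p = 0.229), that of pdi-2 -0.33 and that of let-268 -0.20. The difference shrank by more than 1.5 times in let-268, bli-4, fkb-3 and fkb-4 when this array was left out.

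**Figure D3:**
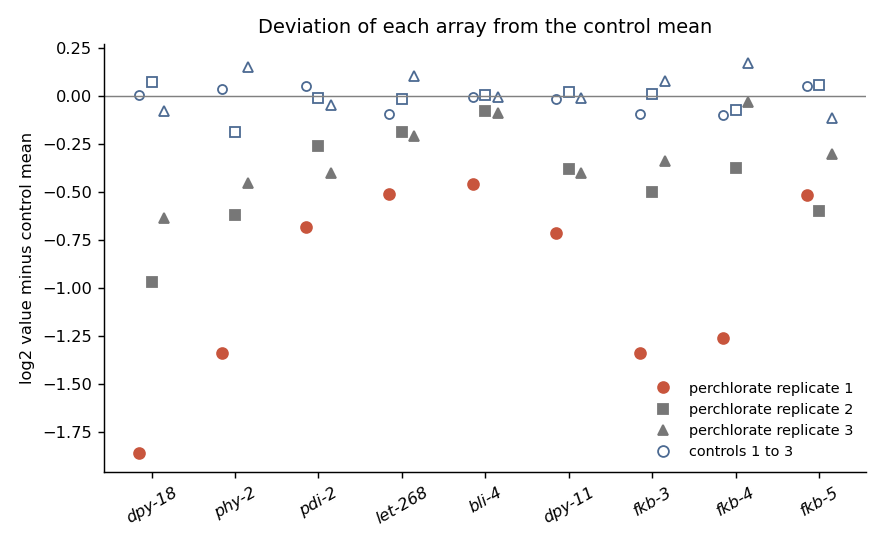
Log2 value minus the control mean for each enzyme gene and array, with open blue markers for the controls, red circles for perchlorate replicate 1 and grey markers for replicates 2 and 3. Replicate 1 is lowest in every gene but fkb-5, and reaches -1.86 in dpy-18.

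Subunits of 1 complex, and members of 1 family, were compared within each array, which asks whether their differences were unequal. In all, 6 pairs were tested with a two-sided exact permutation test, whose smallest possible p with 3 against 3 arrays is 0.1, so no pair could reach 0.05. For dpy-18 minus pdi-2, an alpha against the beta subunit gene, the log2 differences of the perchlorate arrays from the control mean were -1.18, -0.71 and -0.24. These lay below all controls, and the contrast was -0.71 (SE 0.274, exact p = 0.1, adjusted over the 6 pairs p = 0.3). Without perchlorate replicate 1 this contrast was -0.47.

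Between the alpha subunit genes, dpy-18 minus phy-2, the contrast was -0.35 (SE 0.171, exact p = 0.2, adjusted p = 0.3), and the arrays of both groups overlapped. For phy-2 minus pdi-2 it was -0.36 (SE 0.205, exact p = 0.2, adjusted p = 0.3). Among the isomerases, fkb-3 minus fkb-4 gave -0.17 (SE 0.0861, exact p = 0.2, adjusted p = 0.3). The pairs with fkb-5 gave -0.25 (SE 0.304, exact p = 0.7) for fkb-3 and -0.08 (SE 0.361, exact p = 0.8) for fkb-4, both at an adjusted p of 0.8. On perchlorate replicate 1 these contrasts were -0.82 and -0.74, while on replicates 2 and 3 they lay within the range of the controls, and both turned positive without replicate 1 (0.03 and 0.25). The contrast was -0.21 for phy-2 minus pdi-2 without perchlorate replicate 1, -0.22 for dpy-18 minus phy-2 without control replicate 2, and -0.10 for fkb-3 minus fkb-4 without perchlorate replicate 3. The fkb-4 minus fkb-5 contrast also turned positive without control replicate 3 (0.06).

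**Figure D4:**
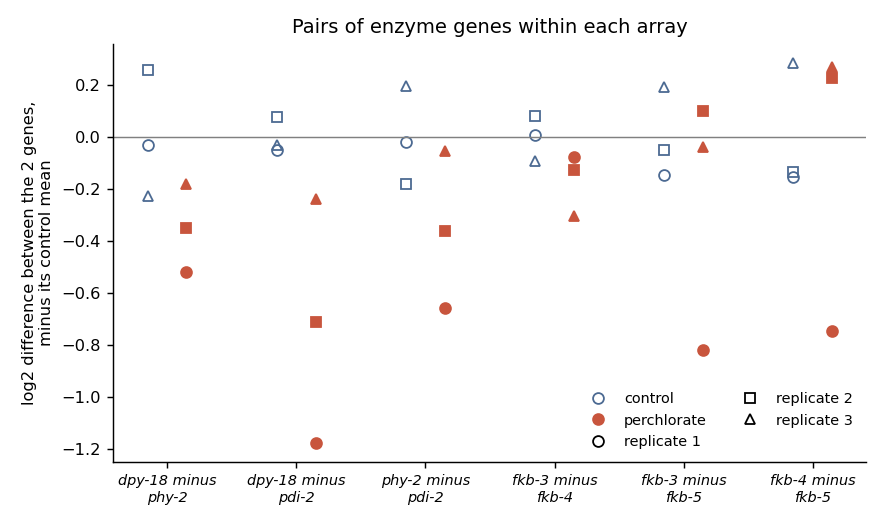
Log2 difference between 2 enzyme genes on the same array, minus its control mean, for the 6 pairs, with open blue markers for controls, red for perchlorate and a shape for each replicate number. The pair of dpy-18 and pdi-2 is the one whose groups do not overlap; the pairs with fkb-5 hold one low value, from perchlorate replicate 1.

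Genes of related families and steps were read from the same fit. They were listed by family or step, so their counts do not describe collagen processing alone. Across 6 lists with 47 measured genes, 27 had a difference below 0 and 20 above (median -0.07), and 0 passed the limma adjusted threshold in either direction, while 9 were lower and 2 higher at an unadjusted p under 0.05. Over all tested probe sets 7.92% were lower and 8.46% higher at that unadjusted limma p. Of the 47, 36.2% had groups separate and lower and 19.1% separate and higher. The shares were 11.2% and 12.8% over all tested probe sets, and 17% and 16.6% over those above the median of brightness.

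Among 7 other hydroxylase, disulfide isomerase and disulfide-forming genes, 6 had a difference below 0 (median -0.16). The largest difference was in pdi-6, which encodes a disulfide isomerase (-0.45, SE 0.114, limma adjusted p = 0.156). The prolyl 4-hydroxylase gene phy-3, known from the spermatheca, had a positive sign, with 6.07 ± 0.0344 in the controls and 6.39 ± 0.116 in the perchlorate group (n = 3 arrays a group, ± SD) and a difference of 0.32 (log2, SE 0.111, limma adjusted p = 0.229).

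Of 5 other FK506-binding protein genes, 2 lay below 0 and 3 above, with a median of 0.02. The 2 largest differences were -0.27 (SE 0.118) in fkb-1 and -0.24 (SE 0.198) in fkb-7, the latter -0.09 without perchlorate replicate 1. Cyclophilins are another prolyl isomerase family; 11 of 16 measured genes lay above 0, with a median of 0.11, or 0.07 without perchlorate replicate 1. The largest differences were -1.15 (SE 0.231, limma adjusted p = 0.141) in cyn-17 and 0.55 (SE 0.131, limma adjusted p = 0.152) in cyn-12.

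The 3 other proprotein convertase genes lay below 0 and dpy-31, the astacin protease that cuts the carboxyl end of cuticle procollagens, lay above, with a median of -0.26 over the 4. The convertase gene egl-3, known from neuropeptide processing, differed by -0.47 (SE 0.111, limma adjusted p = 0.151), and kpc-1 by -0.28 (SE 0.146, limma adjusted p = 0.386). Among 7 genes listed under cuticle cross-linking and its regulators, 4 lay below 0 (median -0.34). A role of each gene in the cuticle was not checked. The peroxidase gene mlt-7 and the oxidase maturation factor gene doxa-1 had the largest differences, -0.49 (SE 0.261) and -0.39 (SE 0.279). Without perchlorate replicate 1 these were -0.17 and -0.04, and the median of the list was -0.04.

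Of 8 genes of export from the endoplasmic reticulum, 7 lay below 0, with a median of -0.38, or -0.40 without perchlorate replicate 1. The largest differences were -0.59 (SE 0.133) in tfg-1, which acts at exit sites, and -0.53 (SE 0.122) in sec-24.1, a COPII coat gene, both at a limma adjusted p of 0.151. In this list perchlorate replicate 1 was not set apart: the list medians were -0.27, -0.36 and -0.36 on the perchlorate arrays, and 0.04, 0.08 and -0.17 on the controls.

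The substrates of these enzymes were read in the same way. Of 17 measured cuticle collagen genes known from body-shape or blister mutants, 15 had a log2 difference below 0 (median -1.07). Among those above 0, dpy-14 (0.12, SE 0.166) was dim, at a mean percentile of brightness of 5.79, so its sign says little. Groups were separate and lower in 13 of the 17, beside 11.2% of all tested probe sets, or 17% of those above the median of brightness. Adjusted over all probe sets 0 passed limma's threshold, while 14 were lower and 0 higher at an unadjusted p under 0.05. For all tested probe sets these shares were 7.92% and 8.46%. The largest differences were -1.59 (SE 0.417, limma adjusted p = 0.163) in dpy-5 and -1.58 (SE 0.346, limma adjusted p = 0.148) in sqt-2. The list medians were -1.66, -0.92 and -0.61 on perchlorate replicates 1 to 3. That order of arrays was also seen in dpy-18, phy-2, fkb-3 and fkb-4, but not in the other enzyme genes. The moulting cycle list below had it as well. The basement membrane collagen genes emb-9 and let-2 differed by -0.43 (SE 0.104, limma adjusted p = 0.152) and -0.39 (SE 0.133, limma adjusted p = 0.224), with medians of -0.39, -0.44 and -0.40 on the perchlorate arrays.

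**Figure D5:**
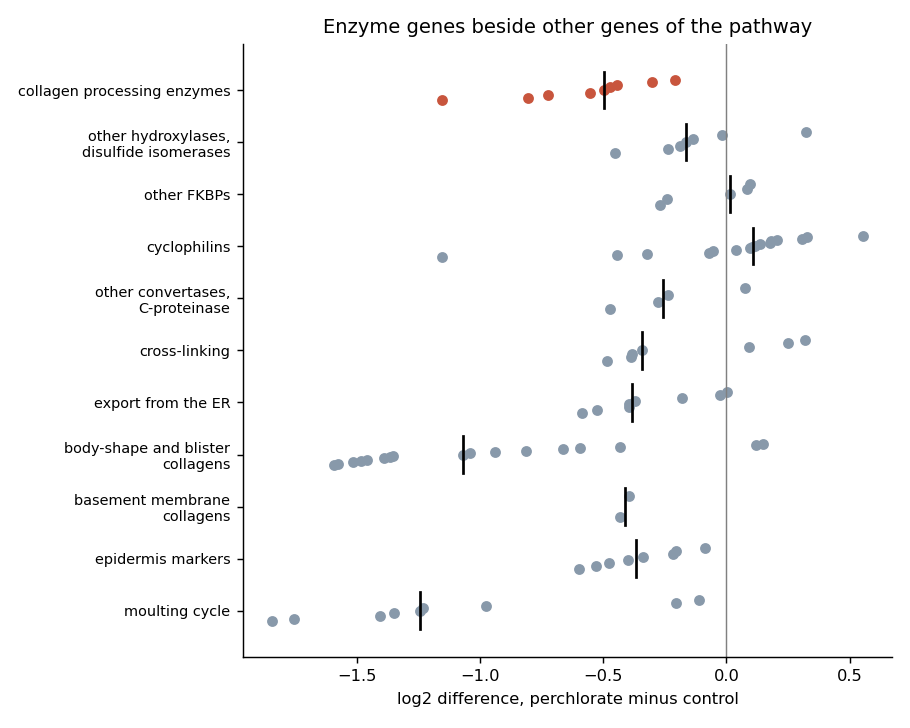
Log2 difference (perchlorate minus control) of each gene in the enzyme group (red) and in 10 other lists (grey), with a black line at each list's median. The enzyme genes lie between -1.15 and -0.21, the body-shape and blister collagens reach -1.59, and the cyclophilins lie on both sides of 0.

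Markers of the tissue that makes the cuticle, and of the moulting cycle, were also mostly lower on the perchlorate arrays. Of these, 0 passed the limma adjusted threshold. At an unadjusted limma p under 0.05, 4 epidermis and 7 moulting genes were lower and 0 higher. The shares over all tested probe sets were 7.92% lower and 8.46% higher. All 8 epidermis markers lay below 0 (median log2 difference -0.37). In 5 the groups were separate and lower, beside 11.2% of all tested probe sets, or 17% of those above the median of brightness. The mean log2 level of the list was 8.15 to 8.32 in controls and 7.86 to 7.94 with perchlorate. Its largest differences were -0.60 (SE 0.186) in che-14 and -0.53 (SE 0.128) in ajm-1, a gene of apical junctions. The moulting cycle list shares a gene with the epidermis list, so the lists are not separate sets. All 9 moulting cycle genes lay below 0 (median -1.24). Of these, 7 were separate and lower, beside 11.2% of all tested probe sets, or 17% of those above the median of brightness. Their mean level was 8.34 to 8.70 in controls and 6.92 to 7.80 with perchlorate. The 2 largest were mlt-11 (-1.84, SE 0.315) and wrt-4 (-1.75, SE 0.377). The medians of the moulting list were -2.03, -1.04 and -0.77 on perchlorate replicates 1 to 3. The part of tissue makeup and of moulting stage in the differences of the enzyme genes was not tested.

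The lists of other tissues had medians nearer to 0. Body wall muscle markers had a median of -0.22 with 7 of 8 below 0, led by myo-3 (-0.55) and unc-15 (-0.33), and a mean level of 11.10 to 11.20 in controls and 10.83 to 11.01 with perchlorate. Intestine markers had a median of -0.22 with 6 of 6 below 0, led by ges-1 and elt-7 (-0.40 and -0.39), and a mean level of 9.74 to 9.86 and 9.567 to 9.574. Neuron markers had a median of -0.14 with 6 of 6 below 0, led by unc-13 (-0.54) and egl-21 (-0.23), and a mean level of 9.001 to 9.074 and 8.79 to 8.90. Germline markers had a median of -0.01 with 3 of 5 below 0, with -0.14 in gld-1 and -0.05 in glp-1, and a mean level of 10.03 to 10.25 and 10.07 to 10.24. The yolk genes of the adult had a median of 0.30, led by vit-1 (0.56) and vit-5 (0.33). Of the 5 measured, 2 lay below 0, but only just, with the lowest at -0.03. Their mean level as a list was 11.70 to 11.79 in controls and 11.87 to 12.17 with perchlorate. Without perchlorate replicate 1 the median was 0.16 for the yolk genes and -0.10 for the germline markers, where glp-1 was at -0.10. In none of these 7 marker lists did a gene lie on average below the lower quartile of the arrays, or pass the limma adjusted threshold. At an unadjusted limma p under 0.05, 3 muscle, 2 intestine and 1 neuron markers were lower and 2 yolk genes higher. Over all tested probe sets 7.92% were lower and 8.46% higher.

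The genes whose profile over the 6 arrays was most like that of the enzyme group were found among 12628 other genes above the median of brightness. Likeness was the root mean square difference in log2 units from the median profile of the 9 genes. Closest was txdc-12.2, named for a thioredoxin domain, at 0.0238, with a log2 difference of -0.48 (SE 0.141). Then came C54G4.4 at 0.0279, the protein kinase C gene tpa-1 at 0.0410, mup-4, a gene of epidermal attachment, at 0.0433, and the collagen gene col-76 at 0.0441. Within the group, dpy-11 lay nearest the median profile, at 0.0260, then pdi-2 at 0.0634, and dpy-18 farthest, at 0.541. On perchlorate replicates 1 and 2 that median was the value of dpy-11 itself (-0.71 and -0.38). The nearness of dpy-11 was therefore built in, and likeness to the profile is in large part likeness to dpy-11.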

How the data were processed

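Total RNA of whole L4 hermaphrodites was isolated with Trizol and glass beads, and biotin-labelled cDNA was made from it by whole-transcriptome amplification, per the labels' protocols. The table deposited by the authors holds log2 values, 1 for each probe set; the submitters' processing notes name RMA and Affymetrix Expression Console. Their versions and a genome build are not given in the sources used here. Coordinates are therefore left out. The table was used as it stands, without a filter on dim probe sets. Of 29317 rows, 25546 had 1 gene symbol, 646 several and 3125 none in the platform annotation, and the 26192 with a gene were tested. Symbols were updated through RefSeq gene identifiers, and all 9 enzyme genes matched. The groups were compared with limma 3.58.1 in R 4.3.3 (lmFit and eBayes, two-sided, Benjamini-Hochberg over all tested rows, threshold 0.05), with 4 residual and 3.12 prior degrees of freedom. Pairs of genes were compared with an exact permutation test in SciPy 1.17.1. The procedure was tested on simulated data.

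The enzyme genes, the gene lists, the 6 pairs and the rule for which genes to name were set with earlier results of these data known. The rule named all 9 enzyme genes, in each list any gene past the threshold and the 2 with the largest differences, and the 5 genes of most similar profile. The other examples, dpy-31, dpy-14 and the 3 convertases as a group, were named to account for their lists. The lists held other hydroxylases and disulfide isomerases, other FK506-binding proteins, cyclophilins, other convertases, cross-linking, export, cuticle and basement membrane collagens, and markers of epidermis, muscle, intestine, neurons, germline, moulting and yolk; cyn-14, dpy-10, cle-1 and vit-3 had no row of their own and were not analysed here. Same-numbered arrays of both groups did not vary together (correlations of their deviations 0.028, -0.018 and -0.006), so the numbers were not taken as pairs. Alternatives were another normalisation, centring, filters, all rows, a trended and robust prior, array weights, the mean of a gene's rows, the replicate block and each array left out.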

Additional observations from a re-analysis of the deposited data

How the results depend on the processing

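All 9 enzyme genes kept a log2 difference below 0 under each of 15 alternatives, but for many of these the sign was fixed beforehand. The filters, all rows, the trended and robust prior, the replicate block and the mean of rows leave the difference itself unchanged. Leaving out a perchlorate array could not turn it either, since each gene lay below its control mean on every perchlorate array. Under the 15 alternatives 0 of the 9 passed the limma adjusted threshold. The smallest limma adjusted p was 0.0505, for dpy-11 with a trended and robust prior. Over the arrays left out in turn, differences ran from -1.41 to -0.80 in dpy-18, -0.98 to -0.54 in phy-2, -0.54 to -0.33 in pdi-2, -0.36 to -0.20 in let-268, -0.27 to -0.08 in bli-4, -0.55 to -0.39 in dpy-11, -0.92 to -0.42 in fkb-3, -0.82 to -0.20 in fkb-4 and -0.56 to -0.41 in fkb-5. The median of the 9 ran from -0.56 to -0.39. The count of all tested probe sets called, 2, was 1 with quantile normalisation applied again, with arrays centred and with all rows, 97 above the median of brightness, 328 with a trended and robust prior, and 0 with the replicate number as a block or on leaving out any array. At an unadjusted limma p under 0.05 the block gave 3908 probe sets, and the arrays left out gave 2793 to 4589. With the replicate number as a block the dpy-18 difference was -1.15 (limma adjusted p = 0.256), and this block changed no call of an enzyme gene. With the trended and robust prior, genes of the other lists that passed were pdi-6, cyn-12, cyn-17, egl-3, sec-24.1, tfg-1, dpy-2, dpy-3, bli-1, emb-9, myo-3, unc-54, mlt-11 and lin-42; of these dpy-2, dpy-3, bli-1, unc-54 and lin-42 were named after their values were seen. Of the contrasts between genes, fkb-3 minus fkb-5 ran from -0.428 to 0.0327 and fkb-4 minus fkb-5 from -0.26 to 0.25 over the arrays left out. The other 4 kept their sign, with ranges of -0.94 to -0.47 for dpy-18 minus pdi-2, -0.46 to -0.22 for dpy-18 minus phy-2, -0.51 to -0.21 for phy-2 minus pdi-2 and -0.22 to -0.10 for fkb-3 minus fkb-4. In these 4 every perchlorate array lay below the control mean, so leaving out a perchlorate array could not turn the sign. Each gene had 1 row, so the mean of its rows was the same value.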
